A study of Mus musculus with 28 samples.

Results

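Liver transcript levels were compared between male C57BL/6 mice of 12 months, called middle age in the study's design, and of 6 months, the adult reference. The comparison holds 8 of the 28 arrays of the series: all 4 arrays labelled C57BL/6 12 months and all 4 labelled C57BL/6 6 months, chosen by strain and age alone. Each array is a whole-genome Affymetrix mouse chip hybridised with total RNA of the liver of 1 animal, and each group holds 4 mice. The animals are named below by the numbers in their labels, which are 2, 11, 16 and 21 at 6 months and 3, 6, 13 and 17 at 12 months. All were untreated males on a standard chow diet, obtained at about these ages from a breeder, kept in a light and dark cycle and killed with CO2. The strain is given as C57BL/6 in one label and as C57Bl6/J in another. The labels name no transgene or deletion for either group, and they do not settle the substrain. No source used here gives the hour of death.

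The adult liver makes most plasma proteins, oxidises or stores fatty acids, turns cholesterol into bile acids and clears foreign compounds. Clearance runs through phase I enzymes such as the cytochromes P450, phase II enzymes that attach polar groups, and transporters, under nuclear receptors such as PXR, CAR and PPARalpha. Besides hepatocytes the tissue holds Kupffer cells, sinusoidal endothelium, stellate cells and lymphocytes, and ageing liver is known for a growing load of immune cells. In whole tissue, fewer cells of a type and less RNA per cell cannot be told apart.

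Levels are log2(intensity + 16) after quantile normalization over the 16 C57BL/6 arrays, so that an intensity of 0 or below stands at a floor of 4. An intensity of 52.6, which is 6.10 on this scale, was taken as the bound of background, since 95% of the values below 0 were smaller in size. Each of 18193 genes was read from 1 probe set, 8686 of them above this bound on all 4 arrays of at least one of the 2 ages. Differences are 12 minus 6 months with their standard error from limma, and p-values were adjusted over all 18193 genes by the Benjamini-Hochberg method. Probe sets bind with different strength, so levels of different genes are not compared.

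The livers carried their defining transcripts at both ages. The median level of 13 hepatocyte markers lay between 13.45 and 13.50 on the 6 month arrays and between 13.43 and 13.47 on the 12 month arrays. Quantile normalization gives every array the same distribution of values, which holds bright transcripts at similar levels. The list's median difference was -0.019, against -0.1157 with arrays scaled to a common median and -0.065 with a trimmed mean. Mean raw intensity ran from 230 to 272 at 6 months and from 175 to 292 at 12 months, and the mean correlation of an array with its own group from 0.978 to 0.984 over both. On the hepatocyte markers 6 month animal 11 was the lowest of its age, at 13.45 against 13.50 in the other 3. Further, 3 sets of transcripts separated animals within an age.

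The first set was pancreatic. Cpa1, a carboxypeptidase of pancreatic acinar cells, was at the floor of 4.00 on all 4 arrays of 6 months and on 12 month animals 3 and 6, and at 6.23 and 7.10 on 12 month animals 13 and 17. Cpb1, a second pancreatic carboxypeptidase, read 4.00, 4.00, 4.00 and 4.33 at 6 months and 4.00, 5.09, 6.41 and 7.41 at 12 months in the order of the animals above. The trypsinogen transcript 2210010C04Rik read 4.00, 4.09, 4.00 and 4.00 at 6 months and 4.00, 5.89, 7.62 and 8.61 at 12 months. Each of them was highest in animal 17, next in animal 13, and below the bound in animals 3 and 6 and in every 6 month animal. Clps (colipase), Ctrl (chymotrypsin-like protease) and Cela2a (an elastase) had the same 2 animals on top. Of 32 acinar transcripts measured, 15 and 16 exceeded the bound in animals 13 and 17, 4 and 7 in animals 3 and 6, and 5 to 7 in the 6 month animals. Their summed intensity ran from 1553 to 1932 at 6 months and from 2015 to 3847 at 12 months. These sums include Cela1, which exceeded the bound on all 8 arrays, with means of 9.86 at 6 months and 10.06 at 12 months. The list had a median difference of 0.23 with 24 members above 0 and 7 below, and 0.07 with animals 13 and 17 left out. None of the 21 pancreatic endocrine transcripts exceeded the bound on any 12 month array. Amy2a5, Pnlip and Prss1 have no probe set with that symbol alone.

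Pla2g1b, the pancreatic phospholipase A2, read 4.00, 4.14, 4.00 and 4.00 at 6 months and 4.32, 4.94, 5.26 and 5.27 at 12 months, all under the bound. Both ages being at background, no size is given for it. Its adjusted p was 0.166, and 0.00232 with 12 month animal 3 left out, while its 3 other probe sets differed by 0.00 to 0.06. The other acinar transcripts higher on every 12 month array were Rnase1, a secreted ribonuclease, by 0.80 ± 0.23, Clps by 1.26 ± 0.34 and Ctrl by 1.55 ± 0.45, with animals 13 and 17, the only ones above the bound, the highest in each. With Pla2g1b these are 4 of 32 transcripts, against 1.53% of all genes. All 6 month arrays being under the bound, the sizes are uncertain. Over the alternatives they ran from 0.41 to 1.18 for Rnase1, 0.56 to 2.70 for Clps and 0.53 to 4.58 for Ctrl. The part of pancreatic RNA in other differences was not tested beyond the values without animals 13 and 17 given below.

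The second set was skeletal muscle. Acta1, the actin of skeletal muscle, read 4.29, 12.29, 4.00 and 5.48 at 6 months and 5.31, 11.33, 4.44 and 4.00 at 12 months. Ckm, the muscle creatine kinase, read 5.53, 10.86, 5.96 and 5.43 and then 5.25, 9.64, 5.03 and 6.25. In both genes 1 animal per age, 11 at 6 months and 6 at 12 months, stood far above the others. Over 26 muscle transcripts, 24 exceeded the bound in animal 11 and 23 in animal 6, against 2 to 6 in the other 6 animals. With 1 such array in each group the list had a median difference of -0.28, which was 0.00 without those 2 animals and 0.68 without 12 month animals 13 and 17.

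The third set was the circadian clock, which paces the liver's daily programme. Dbp, a PAR bZIP factor driven by the clock, read 8.11, 9.79, 11.50 and 11.12 at 6 months and 7.21, 8.42, 10.94 and 10.74 at 12 months. Arntl, which codes for the clock activator BMAL1, read 7.38, 6.92, 4.67 and 5.67 and then 7.36, 7.07, 5.98 and 6.00. At both ages the 2 animals with high Dbp (16 and 21, then 13 and 17) had the low Arntl, and the ages overlapped in both genes. Usp2, a deubiquitinase with a strong daily rhythm, and Wee1, a kinase that delays mitosis, split the animals as Dbp did. At 12 months the animals with high Dbp were also the ones with the pancreatic transcripts. Of 21 clock genes measured, 8 lay above 0 and 13 below, with a median difference of -0.25. That median ran from -0.33 to -0.06 as single animals were left out, and was -0.40 without 12 month animals 13 and 17 and -0.63 with the acinar level as a covariate. The part of the hour of death in these levels was not tested.

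**Figure D1:**
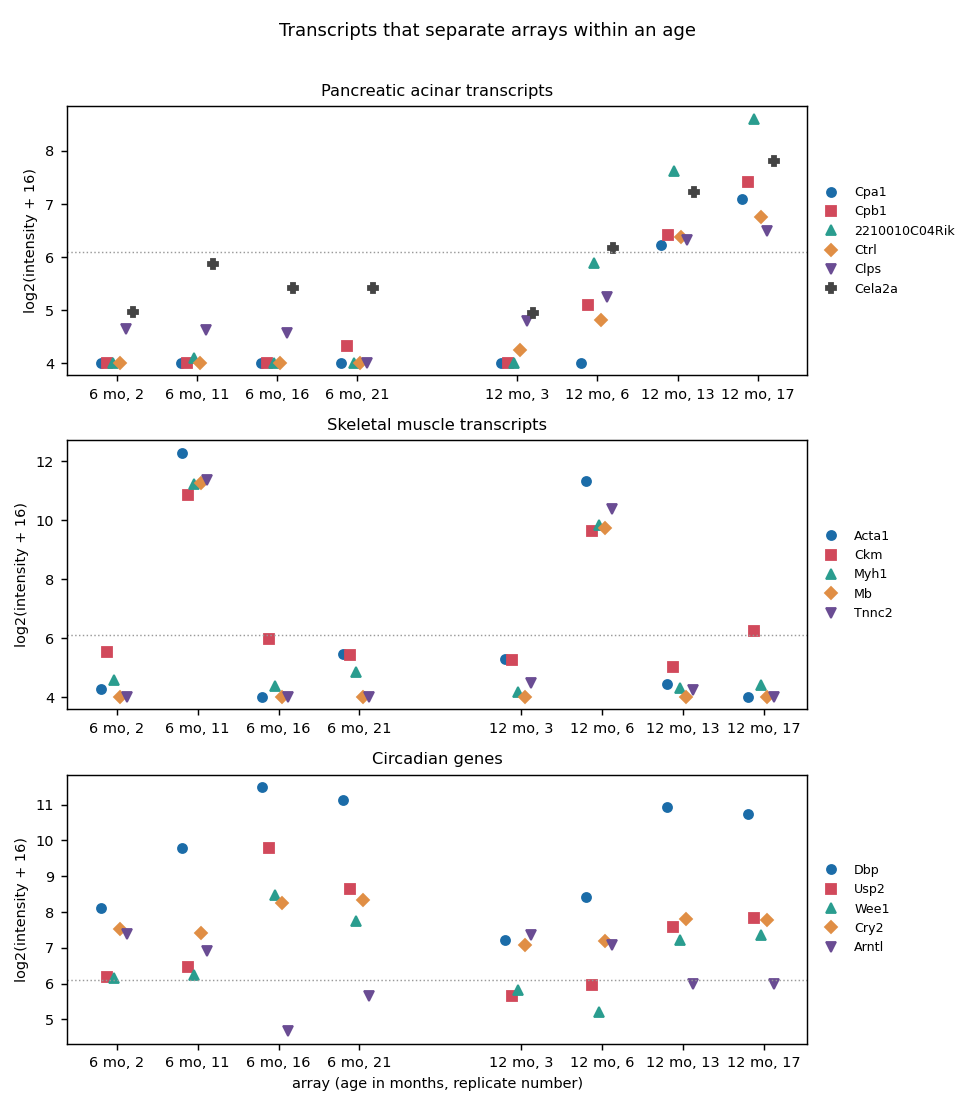
Levels of pancreatic acinar, skeletal muscle and circadian transcripts on each of the 8 arrays, as log2(intensity + 16), with 1 point per gene and array and the dotted line at the bound of background. Acinar transcripts are highest in 12 month animals 13 and 17, muscle transcripts in 6 month animal 11 and 12 month animal 6, and Dbp and Arntl split the animals of each age in opposite directions.

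No single gene passed the test between 12 and 6 months. By limma, 0 of 18193 genes (0%) passed at an adjusted p of 0.05, the smallest being 0.166. Unadjusted p was under 0.05 for 1264 genes (6.95%), of which 625 were higher (3.44%) and 639 lower (3.51%) at 12 months. The 2 groups did not overlap in 594 genes (3.26%): all 12 month arrays were above all 6 month arrays in 278 (1.53%) and below them in 316 (1.74%). The median difference over all genes was 0.00, with 48.5% above 0, and 302 genes differed by more than 1.5-fold. Without animals 13 and 17, 4 genes passed: Inpp1, Ddx6 and 2 transcripts below the bound. The genes below are described by their values.

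The genes with the smallest unadjusted p differed little in size. Zbtb44, a zinc finger protein, read 9.66, 9.69, 9.67 and 9.72 at 6 months and 9.37, 9.37, 9.47 and 9.44 at 12 months, a difference of -0.27 ± 0.04 (unadjusted p = 1.13e-05, adjusted p = 0.166). Inpp1, an inositol phosphatase, read 6.87, 7.08, 7.04 and 7.00 and then 6.24, 6.20, 6.65 and 6.57, lower by 0.58 ± 0.10 on the log2 scale. The 2 ages did not overlap in either gene. Without 12 month animals 13 and 17 the Inpp1 difference was -0.78 with an adjusted p of 0.0122. A second Inpp1 probe set, above the bound on all 8 arrays, gave a difference of -0.27 with all animals in. Gemin2, which helps assemble spliceosomal particles, differed by -0.45 ± 0.07, Abl2, a tyrosine kinase, by 0.44 ± 0.08, and Exoc8, a subunit of the exocyst, by 0.27 ± 0.05. Each had an adjusted p of 0.166 and groups that did not overlap. Gemin2, Abl2, Exoc8 and Zbtb44 were named after their values were seen.

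The largest fitted difference was in Ighm, and its size depended on the probe set. Ighm, the heavy chain of IgM, read 5.96, 6.07, 4.75 and 4.00 at 6 months, below the bound on every array, and 8.17, 9.41, 10.62 and 9.19 at 12 months. The 2 ages were far apart, with animal 13 the highest. The 12 month level was at least 9.51-fold higher, counting the 6 month arrays at the bound, and the fitted log2 difference was 4.16 ± 0.80 (adjusted p = 0.184). Jchain, the joining chain of secreted IgM and IgA, read 6.49, 6.51, 6.33 and 6.23 at 6 months and 7.30, 7.15, 8.35 and 8.23 at 12 months. It was higher by 1.37 ± 0.50 on the log2 scale without overlap (adjusted p = 0.613), and animals 13 and 17 led. Igkv8-30, a variable segment of the kappa light chain, read 7.00, 6.60, 6.73 and 6.73 and then 7.86, 8.47, 9.71 and 8.94, a difference of 1.98 ± 0.58 (adjusted p = 0.535) with no overlap.

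Other genes of B and plasma cells showed smaller differences. Igha, the IgA heavy chain, read 6.05, 6.29, 6.56 and 6.60 at 6 months and 6.96, 6.06, 7.93 and 9.10 at 12 months, and animal 6 fell within the younger range. Ms4a1 (CD20) differed by 0.34 ± 0.17 and overlapped. Cd79a, part of the B cell receptor, was below the bound on all 8 arrays and Cd79b on 7 of them. Mzb1, a chaperone of plasma cells, differed by 0.07 ± 0.18. Of 22 B and plasma cell markers measured, 14 lay above 0 and 7 below, with a median of 0.14. Unadjusted p was under 0.05 for 4, all higher (18.2% against 3.44% of all genes), and 11 of the 22 were never above the bound.

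The immunoglobulin values depended on the probe set and on 2 animals. Ighm has 11 probe sets with that symbol alone. The one used here has the highest mean over all arrays of the series, through the older ages, and may bind several transcripts by its design. At 6 months it was under the bound. The 2 others that exceeded the bound on all 8 arrays gave 1.90 and 0.11, and the 10 others ranged from -0.19 to 1.90, with 4 of them above 0. Immunoglobulin genes are near copies of each other, so which member was measured is uncertain. Without animals 13 and 17, which also carried the pancreatic transcripts, the differences were 3.58 for Ighm, 1.39 for Igkv8-30, 0.83 for Jchain and 0.14 for Igha.

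Ighm had means of 10.42 at 18 months and 10.76 at 24 months, against 9.35 at 12 months. The lowest arrays of those ages, at 9.14 and 9.09, were above every 6 month array. Neither 18 nor 24 months passed the test against 12 months in Ighm, where the differences were 1.07 ± 0.80 (adjusted p = 0.921) and 1.41 ± 0.80 (adjusted p = 0.45). Against 6 months Ighm passed the test at both ages, with differences of 5.23 (adjusted p = 0.0402) and 5.57 (adjusted p = 0.00798). Of all 18193 genes, 20 passed at 18 against 6 months and 233 at 24 against 6 months. Both comparisons share the 6 month arrays with that of 12 against 6 months. Here and for the genes below, passing them is therefore no separate support for a difference at 12 months.

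Metallothioneins were the next group. They bind zinc and copper and are induced by metals, glucocorticoids and inflammation. Mt1 read 7.11, 7.79, 7.26 and 7.98 at 6 months and 8.10, 8.48, 9.34 and 8.77 at 12 months, a difference of 1.13 ± 0.35 (unadjusted p = 0.00672, adjusted p = 0.559). Mt2 read 6.67, 6.86, 6.86 and 6.79 and then 7.28, 7.18, 7.78 and 7.60, a difference of 0.67 ± 0.27 (adjusted p = 0.647). In both genes every 12 month array was above every 6 month array, and animal 13 was the highest. Mtf1, the zinc-sensing factor that drives metallothionein genes, lay the other way: it read 7.78, 7.97, 7.86 and 8.04 at 6 months and 7.28, 7.40, 7.29 and 7.55 at 12 months. The Mtf1 difference was -0.53 ± 0.08 (unadjusted p = 2.88e-05, adjusted p = 0.166), with no overlap, and the gene was named after its values were seen. Mtf1 stood at means of 7.30 and 7.15 at 18 and 24 months and passed the test against 6 months at both (adjusted p = 0.022 and 0.00513). Both tests reuse the 6 month arrays of the comparison from which the gene was named, so they are no separate support. Mt1 means at 18 and 24 months, 8.0 and 8.57, lay between those of 6 and 12 months. Without animals 13 and 17 the differences were 0.75 for Mt1, 0.43 for Mt2 and -0.57 for Mtf1. A second, dim probe set of Mt1 gave 0.23.

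The promoters of the metallothionein pair are shown because they hold the core of the metal response element that MTF1 binds. Each stretch runs from 250 bases before to 30 bases after the RefSeq start (GRCm38.p6), on the strand of the gene. Capitals mark matches to TGCGCNC or TGCACNC on either strand.
Mt1, chr8:94178839-94179118, plus strand: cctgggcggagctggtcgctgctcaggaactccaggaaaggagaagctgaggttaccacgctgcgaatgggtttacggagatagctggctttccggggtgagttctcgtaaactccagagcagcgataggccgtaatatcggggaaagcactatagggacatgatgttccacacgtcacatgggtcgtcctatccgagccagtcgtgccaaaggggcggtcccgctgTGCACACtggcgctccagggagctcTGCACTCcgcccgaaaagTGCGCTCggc
Mt2, chr8:94172368-94172647, plus strand: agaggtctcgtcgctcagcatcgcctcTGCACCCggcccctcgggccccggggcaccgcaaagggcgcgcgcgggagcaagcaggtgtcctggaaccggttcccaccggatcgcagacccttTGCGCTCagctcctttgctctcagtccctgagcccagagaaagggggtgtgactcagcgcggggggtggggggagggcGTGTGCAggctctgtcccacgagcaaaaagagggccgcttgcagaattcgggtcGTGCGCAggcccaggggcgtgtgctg
The Mt1 stretch holds 3 matches and the Mt2 stretch 4. Over 32851 promoters in the RefSeq table, each taken from 250 bases before to 50 after the start, 15.4% hold TGCGCNC and 12.6% hold TGCACNC on either strand. A match describes the letters and is no measured site.

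Asns, the synthetase that makes asparagine and a target of the amino acid response through ATF4, read 6.58, 7.09, 6.19 and 6.41 at 6 months and 8.06, 8.45, 9.17 and 7.17 at 12 months. All 12 month arrays were higher, with animal 17 barely above the top of the younger group. The difference was 1.64 ± 0.62 (unadjusted p = 0.0207, adjusted p = 0.627), and 1.93 by the gene's other probe set. At 18 and 24 months the means were 7.15 and 7.30. Atf5, a factor made under the same response, read 10.10, 9.60, 9.19 and 9.96 and then 10.14, 10.18, 10.18 and 10.21, a difference of 0.46 ± 0.15. Its older arrays sat together just above the highest younger one. Atf4 itself differed by 0.45 ± 0.25 and overlapped, and by 0.02 in a second probe set above the bound on all 8 arrays. Sesn2, a stress-induced regulator of mTORC1 that also answers to ATF4, lay lower by 0.69 ± 0.26 on the log2 scale with overlap. Over 32 genes of ER stress and the integrated stress response, 11 were above 0 and 21 below. Their median was -0.05, and 0.06 without animals 13 and 17.

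The Asns promoter is shown for its amino acid response element, TGATGAAAC, in capitals, with the same extent and build.
Asns, chr6:7693180-7693459, minus strand: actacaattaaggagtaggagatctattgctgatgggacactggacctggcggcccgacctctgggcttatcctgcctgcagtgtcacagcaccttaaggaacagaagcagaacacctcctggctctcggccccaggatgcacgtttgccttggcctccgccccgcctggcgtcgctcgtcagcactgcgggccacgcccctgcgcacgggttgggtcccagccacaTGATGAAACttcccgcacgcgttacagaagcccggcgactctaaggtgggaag
This motif, on either strand, is in 0.247% of the 32851 promoters.

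**Figure D2:**
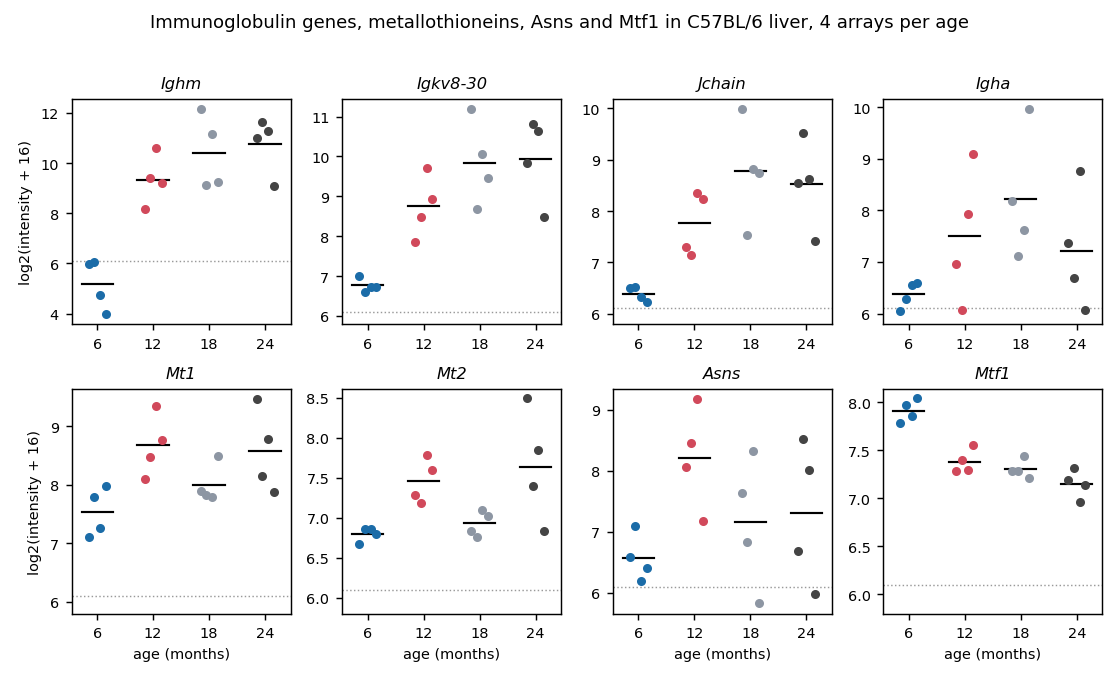
Levels of 8 genes in C57BL/6 liver as log2(intensity + 16) against age in months, with 1 point per animal, a bar at the mean of 4 and a dotted line at the bound of background. Ighm, Igkv8-30 and Jchain are higher on every 12 month array than on any 6 month array, and Mtf1 is lower on every one.

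Further genes with large positive differences were of mixed function. Slc3a1, a subunit of the cystine and dibasic amino acid carrier, read 9.24, 9.10, 8.54 and 8.99 at 6 months and 9.48, 9.70, 10.26 and 9.46 at 12 months, a difference of 0.76 ± 0.19 (unadjusted p = 0.0016, adjusted p = 0.42). The groups did not overlap, animal 13 was the highest, and the means at 18 and 24 months were 9.90 and 9.96. Ptprj, a receptor tyrosine phosphatase, read 7.72, 7.38, 7.35 and 7.32 and then 7.78, 7.81, 8.06 and 8.33, higher by 0.55 ± 0.12 on the log2 scale. Its younger animal 2 came close to the older group, and the means at 18 and 24 months, 7.63 and 7.82, lay between the 2 ages. Ifi27, an interferon-induced membrane protein, read 9.65, 9.84, 9.66 and 9.73 and then 10.02, 10.05, 10.61 and 10.41, a difference of 0.56 ± 0.17 without overlap. Esrrb, an orphan nuclear receptor, differed by 0.67 ± 0.28, Hsf2bp, a meiotic recombination protein, by 0.66 ± 0.19, and Syne1, a nuclear envelope protein, by 0.58 ± 0.23. These last 3 rest on 1 probe set each: the other probe sets gave -0.06 and 0.28 for Esrrb, -0.17 for Hsf2bp, and 0.01 and 0.02 for Syne1, none of them above the bound on all 8 arrays.

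Among genes lower at 12 months, 2 of the largest differences involve levels near background. Ulk3, a kinase linked to autophagy, read 6.32, 6.49, 6.62 and 6.61 at 6 months and 4.64, 6.22, 4.00 and 4.00 at 12 months, with an adjusted p of 0.535. Only animal 6 of the older group exceeded the bound, and since 2 arrays were at the floor the fitted difference ran from -3.95 to -0.84 with the pseudocount. Rab30, a small GTPase of the Golgi, read 6.26, 7.07, 7.07 and 6.53 and then 4.43, 5.85, 5.34 and 5.89, all 4 older arrays below the bound, at least 1.55-fold lower. Both genes showed no overlap. Skap1, an adaptor of T cell receptor signalling, was above the bound on 2 of the older arrays and differed by -0.60 ± 0.20.

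Other lower genes lay above the bound on all 8 arrays. Ces2b, a carboxylesterase that hydrolyses ester drugs and acylglycerols, read 7.97, 8.08, 8.36 and 7.54 at 6 months and 7.32, 7.01, 6.66 and 7.24 at 12 months, a difference of -0.93 ± 0.31 (unadjusted p = 0.0109, adjusted p = 0.577). The groups did not overlap. Its mean was 6.73 at 18 months and 5.62 at 24 months. At 24 months it passed the test against 6 months (fitted difference -2.37, adjusted p = 0.00513) but not against 12 months (fitted difference -1.44, adjusted p = 0.0792). The 24 month mean lies under the bound of 6.10, so the sizes of these last differences are uncertain. Cyp4a31, a fatty acid omega-hydroxylase under PPARalpha, read 6.82, 7.40, 8.21 and 7.27 and then 6.52, 6.56, 6.75 and 6.64, a difference of -0.81 ± 0.27. The older arrays lay close together under the lowest younger one, and 18 and 24 months stood at 6.63 and 6.95. Dio1, the deiodinase that makes active thyroid hormone, read 11.15, 11.08, 11.18 and 11.16 and then 10.64, 10.75, 9.51 and 11.02. Its difference of -0.66 ± 0.25 was -0.34 without animal 13 and -0.84 without animal 17.

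The remaining members of the lower group were smaller in size. N4bp2l1 differed by -0.66 ± 0.27, and by -0.22 in a second probe set above the bound on all 8 arrays. Hnf4aos, a transcript antisense to the hepatocyte factor HNF4A, differed by -0.61 ± 0.26. Phkb, the beta subunit of phosphorylase kinase in glycogen breakdown, differed by -0.56 ± 0.12. Phkb read 8.42, 8.46, 8.14 and 8.33 at 6 months and 7.97, 7.77, 7.82 and 7.55 at 12 months, with an unadjusted p of 0.000517 and an adjusted p of 0.313. Its groups did not overlap, and the later means, 7.99 and 7.91, were near that of 12 months. Atp8a1, a phospholipid flippase, differed by -0.61 ± 0.14 and Synj1, a phosphoinositide phosphatase, by -0.57 ± 0.21, both without overlap. Their other probe sets lay between -0.15 and 0.37 for Atp8a1 and between -0.33 and 0.19 for Synj1. Of the 6 others of Atp8a1 none exceeded the bound on all 8 arrays, and of the 3 others of Synj1 2 did.

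**Figure D3:**
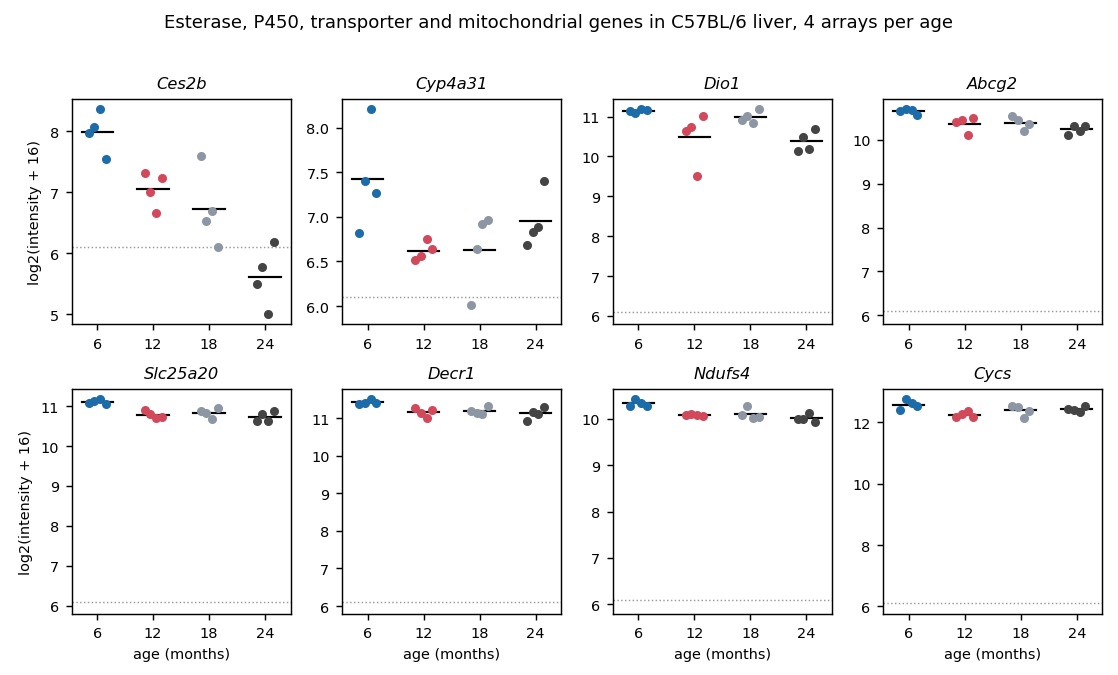
Levels of 8 genes in C57BL/6 liver as log2(intensity + 16) against age in months, with 1 point per animal, a bar at the mean of 4 and a dotted line at the bound of background. In each gene the 12 month arrays lie below all 6 month arrays, and Ces2b has its lowest mean, 5.62, at 24 months, under the bound.

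The enzymes and transporters of xenobiotic clearance, the subject of the series, were compared as 4 lists. Of 251 such genes measured, 105 lay above 0 and 142 below, with a median of -0.03 against 0.00 over all genes. Unadjusted p was under 0.05 for 25 (9.96%, against 6.95% of all genes), 9 higher and 16 lower. All 12 month arrays were lower in 12 of them and higher in 4, against 1.74% and 1.53% of all genes, and 6 differed by over 1.5-fold, as did 302 of all 18193. None passed the test, the lowest adjusted p being 0.166.

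The main drug-metabolising P450 enzymes held nearly equal levels. Cyp2e1, which oxidises ethanol and paracetamol, differed by 0.00 ± 0.03, Cyp3a11, the mouse counterpart of human CYP3A4, by -0.05 ± 0.04, and Cyp1a2, which handles caffeine and aromatic amines, by -0.09 ± 0.15. Their groups overlapped. Of 55 P450 genes measured, 18 lay above 0 and 35 below, with a median of -0.05. Cyp4a14, an omega-hydroxylase strongly induced by PPARalpha ligands, read 9.02, 9.16, 10.32 and 9.01 at 6 months and 7.83, 7.08, 9.68 and 9.62 at 12 months. The ages overlapped, and the older animals spread over the wider range. Cyp2j6, an epoxygenase, differed by -0.25 ± 0.10, Cyp2d12 by -0.36 ± 0.14 and Cyp2d10 by -0.12 ± 0.05, each with overlap. Cyp2b10, the marker gene of CAR activation, differed by -0.15 ± 0.55 and spread from 5.71 to 7.78 at 12 months.

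Other phase I enzymes split 29 above 0 and 37 below. Besides Ces2b, Dhrs4, a carbonyl reductase of retinoids and steroids, read 10.89, 10.92, 11.02 and 10.87 and then 10.64, 10.73, 10.68 and 10.86, a difference of -0.20 ± 0.07 without overlap. Fmo1, a flavin monooxygenase, read 10.57, 10.54, 10.55 and 10.55 and then 10.30, 10.09, 10.46 and 10.41, lower on every older array by 0.24 ± 0.11 on average on the log2 scale. The younger Fmo1 values were almost identical and the older ones spread below them. Akr1c14, a steroid dehydrogenase, differed by -0.28 ± 0.12 with overlap.

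Of 65 phase II genes, 30 lay above 0 and 35 below. Nnmt, which methylates nicotinamide, read 10.71, 10.67, 10.55 and 10.63 at 6 months and 10.75, 11.01, 11.53 and 10.95 at 12 months, a difference of 0.42 ± 0.17 with no overlap and animal 13 the highest. Sult1a1, a phenol sulfotransferase, differed by 0.28 ± 0.10, Gstm1, a glutathione transferase, by 0.15 ± 0.07, and Nat2, an arylamine acetyltransferase, by -0.16 ± 0.06. Acsm3, a medium-chain acyl-CoA synthetase, read 9.86, 10.02, 10.09 and 10.08 and then 9.88, 9.65, 9.65 and 9.65. Only animal 3 of the older mice reached the younger range. Acsm3 differed by -0.31 ± 0.11 at 12 months and passed the test at 24 against 6 months (difference -0.82, adjusted p = 0.00513).

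Transporters split 28 above 0 and 35 below of 64. Abcg2, the export pump also called BCRP, read 10.67, 10.70, 10.68 and 10.56 and then 10.42, 10.46, 10.11 and 10.51, a difference of -0.28 ± 0.09 (unadjusted p = 0.00812, adjusted p = 0.559). Every older array was lower. Slco2a1, a prostaglandin carrier, differed by 0.27 ± 0.08 with overlap, Abcc5, a nucleotide pump, by -0.38 ± 0.12 with overlap, and Abcc9, a subunit of potassium channels, by 0.31 ± 0.11 without. Abca7 had the highest difference of the transporter list, 1.22, with 1 of 8 arrays above the bound.

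Among 31 regulators of these genes 13 lay above 0 and 17 below. Rxra, the shared partner of PXR, CAR and PPARalpha, read 9.97, 9.87, 10.06 and 10.16 at 6 months and 10.49, 10.17, 10.25 and 10.69 at 12 months. The groups met without overlapping, and the difference was 0.39 ± 0.13 (adjusted p = 0.559), with a mean of 9.87 at 24 months, near that of 6 months. Its other probe sets gave 0.00 and 0.08. Ppargc1b, a coactivator of mitochondrial and lipogenic genes, differed by -0.81 ± 0.35 and overlapped. Nr1i2 (PXR) differed by -0.11 ± 0.14, Nr1i3 (CAR) by -0.03 ± 0.24, Ahr, the dioxin receptor, by -0.20 ± 0.21 and Nfe2l2 (NRF2) by -0.14 ± 0.18.

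Genes of fatty acid oxidation lay mostly below 0. PPARalpha is the receptor through which fatty acids raise their own breakdown, and of 57 measured targets and oxidation genes 9 were above 0 and 47 below, with a median of -0.13 against 0.00 over all genes. Unadjusted p was under 0.05 for 10, all lower (17.5% against 3.51% of all genes), and 8 were lower on every 12 month array (against 1.74% of all genes). Slc25a20, which carries acylcarnitines into mitochondria, read 11.07, 11.14, 11.18 and 11.06 at 6 months and 10.91, 10.80, 10.71 and 10.73 at 12 months. It differed by -0.33 ± 0.07 (unadjusted p = 0.000629, adjusted p = 0.336), with a clear gap between the ages. Decr1, a reductase for unsaturated fatty acids, read 11.37, 11.41, 11.51 and 11.41 and then 11.27, 11.13, 11.01 and 11.21, a difference of -0.27 ± 0.08. Eci1, an enoyl-CoA isomerase, read 10.77, 10.96, 10.92 and 10.87 and then 10.68, 10.58, 10.39 and 10.73, a difference of -0.28 ± 0.10. Neither overlapped, and animal 13 was the lowest in both.

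Further members lay on the same side. Eci2, the peroxisomal isomerase, differed by -0.31 ± 0.12 and Slc27a2, a fatty acid carrier and very long chain synthetase, by -0.12 ± 0.05, both without overlap. Hadhb, a subunit of the trifunctional protein, differed by -0.23 ± 0.09 with overlap. Angptl4, a lipase inhibitor, read 9.87, 10.51, 10.13 and 10.06 and then 9.22, 9.78, 8.09 and 10.33, a difference of -0.79 ± 0.35 with animal 17 inside the younger range. Ppara itself read 10.45, 10.38, 10.92 and 11.17 and then 10.10, 10.10, 10.15 and 10.75, a difference of -0.45 ± 0.23 with overlap. Cyp4a10 has no probe set with that symbol alone. Without animals 13 and 17 the median of the 57 genes was -0.16. The list's median level ran from 10.07 to 10.32 on the younger and from 9.86 to 10.33 on the older arrays, so the ages overlapped in it.

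Genes of oxidative phosphorylation split 25 above 0 and 38 below of 63. Ndufs4, a subunit of complex I, read 10.28, 10.43, 10.34 and 10.28 and then 10.09, 10.10, 10.08 and 10.07, a difference of -0.25 ± 0.06 (unadjusted p = 0.00103, adjusted p = 0.404). The 4 older arrays lay within a narrow band under the younger ones. Cycs, cytochrome c, read 12.39, 12.76, 12.63 and 12.53 and then 12.17, 12.27, 12.38 and 12.19, a difference of -0.32 ± 0.09 without overlap. Nnt is the gene of a mitochondrial transhydrogenase, and whether these mice make a working form of the enzyme was not tested. The Nnt transcript read 9.55, 9.52, 9.72 and 9.62 and then 9.29, 9.37, 9.43 and 9.16, a difference of -0.29 ± 0.07. Uqcrc2 of complex III, Cox5a of complex IV and Ndufb6 of complex I were likewise lower on every older array, and Cox8a of complex IV was higher on every one, by 0.14 ± 0.06. Of the 63 genes 7 had an unadjusted p under 0.05 and lay lower and 2 higher, against 3.51% and 3.44% of all genes. The list's median level ran from 11.68 to 11.75 on the younger and from 11.62 to 11.65 on the older arrays, without overlap, while the median of its differences was -0.02. That median ran from -0.0267 to 0.0013 as single animals were left out, and was -0.0969 with arrays scaled to a common median. Without 6 month animal 11 and 12 month animal 6 it was -0.0073, with 30 genes above 0 and 33 below.

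**Figure D4:**
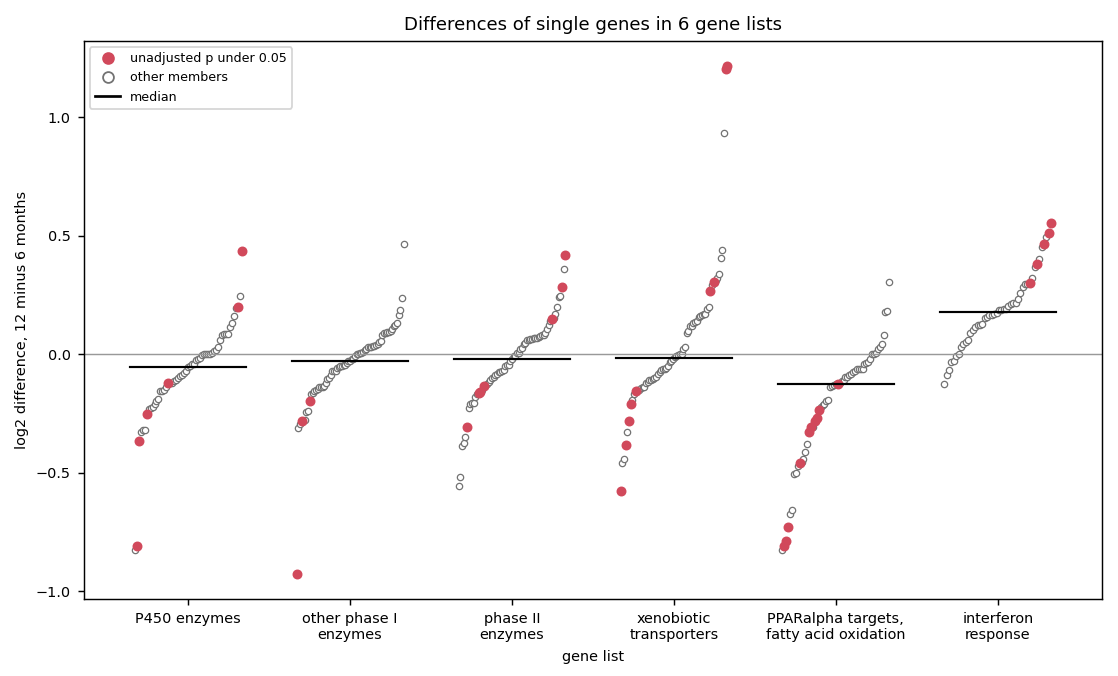
Log2 differences, 12 minus 6 months, of each measured gene in 6 lists, sorted within a list, with filled points for an unadjusted p under 0.05 and a bar at the median. PPARalpha targets have 10 filled points, all below 0, and interferon genes have 5, all above 0. No gene in the plot has an adjusted p under 0.05.

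Genes of fat and sterol synthesis leaned the other way. Of 30 genes of fatty acid and triglyceride synthesis 21 were above 0 and 8 below, with a median of 0.10. Fads1, the delta-5 desaturase, read 11.40, 11.30, 11.44 and 11.53 and then 11.62, 11.59, 11.83 and 11.54, a difference of 0.23 ± 0.08 without overlap. Fasn, fatty acid synthase, differed by 0.37 ± 0.16, Elovl5, an elongase, by 0.42 ± 0.17, and Scd1, the stearoyl-CoA desaturase, by 0.17 ± 0.06, each with overlap and with an adjusted p between 0.627 and 0.684. Srebf1, which drives these genes, differed by 0.13 ± 0.22. Of 21 genes of cholesterol synthesis 20 were above 0, with a median of 0.08 and none with an unadjusted p under 0.05. Sqle, squalene epoxidase, read 9.89, 9.60, 10.03 and 10.03 at 6 months, and 10.58, 10.23 and 10.07 in 12 month animals 3, 6 and 17, while animal 13 fell within the younger range.

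In bile acid synthesis, Fgfr4, the hepatocyte receptor through which intestinal FGF15 restrains bile acid synthesis, read 8.20, 7.92, 7.94 and 8.05 at 6 months and 8.42, 8.63, 8.45 and 8.43 at 12 months. The difference was 0.46 ± 0.08 (unadjusted p = 4.69e-05, adjusted p = 0.166), the groups did not overlap, and at 24 months the gene passed the test against 6 months (difference 0.62, adjusted p = 0.00513). Its 4 other probe sets gave from -0.02 to 0.81, none above the bound on all 8 arrays. Cyp7a1, the rate-limiting enzyme of the pathway, read 9.04, 7.98, 9.50 and 9.97 and then 10.14, 9.63, 10.05 and 9.47, a difference of 0.70 ± 0.43 with overlap. Younger animal 11 was the lowest. Amacr, a racemase of side chain oxidation, and Abcb4, the phospholipid pump of bile, were lower on every older array, by 0.16 ± 0.05 and 0.17 ± 0.08 on the log2 scale. Of 27 genes of the group 11 lay above 0 and 16 below.

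Interferon-stimulated genes lay mostly above 0. Of 46 measured, 39 were above 0 and 6 below, with a median of 0.18 against 0.00 over all genes. Unadjusted p was under 0.05 for 5, all higher (10.9% against 3.44%), and 5 were higher on every 12 month array (10.9% against 1.53%). Ddx58, which codes for the viral RNA sensor RIG-I, read 7.78, 7.88, 7.69 and 7.87 at 6 months and 8.20, 7.96, 8.16 and 8.12 at 12 months, a difference of 0.30 ± 0.08 (unadjusted p = 0.00148, adjusted p = 0.409). The ages did not overlap. Ly6e, a GPI-anchored antiviral protein, read 10.89, 11.24, 10.81 and 11.13 and then 11.35, 11.53, 11.77 and 11.47, a difference of 0.51 ± 0.22 without overlap. Stat2, part of the interferon-activated factor ISGF3, differed by 0.38 ± 0.17 and overlapped. The list's median level ran from 6.92 to 7.21 on the younger and from 7.16 to 7.52 on the older arrays. Without animals 13 and 17 its median difference was 0.07.

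At the later ages Ifi27, Ddx58 and Ly6e stood at means of 10.84, 8.28 and 12.28 at 24 months, and each passed the test against 6 months (adjusted p of 0.0102, 0.0133 and 0.0197). In that comparison, which shares the 6 month arrays, 233 of all 18193 genes passed. None of the 3 passed the test between 12 and 24 months, where the adjusted p was 0.159, 0.302 and 0.152.

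Markers of resident immune cells lay above 0 with small differences. Of 32 Kupffer cell and macrophage markers 29 were above 0, with a median of 0.18, none had an unadjusted p under 0.05 and 3 were higher on every older array (9.38% against 1.53%). Marco, a scavenger receptor, read 6.72, 5.52, 6.78 and 6.27 and then 7.07, 6.82, 7.24 and 7.14, a difference of 0.74 ± 0.67. Lyz1, a lysozyme, differed by 0.39 ± 0.37, with 0.41 by a second bright probe set and -0.04 by a dim one. Both bright probe sets may bind several transcripts by their design, and the dim one was under the bound on all 8 arrays. Which lysozyme transcript was measured is therefore uncertain. C1qa, of the first complement component, differed by 0.32 ± 0.41. The standard errors pool the spread of 4 ages. The list's median level ran from 7.57 to 7.88 at 6 months, from 7.83 to 8.07 at 12 months and from 7.88 to 10.15 at 24 months. Cd5l, a macrophage-secreted protein, and Mpeg1, a pore-forming protein, overlapped between the ages. Antigen presentation had 16 of 17 genes above 0 with a median of 0.15. T and NK cell markers had 22 of 27 above 0, and 23 of the 27 were never above the bound. The part of immune cell number in the interferon genes was not tested.

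Lists of secreted proteins of the hepatocyte had small median differences. Of 41 acute phase and complement genes 28 were above 0 with a median of 0.06, and -0.01 with arrays scaled to a common median. Single members ran from -0.53 to 1.13. Unadjusted p was under 0.05 for 6, all higher (14.6% against 3.44% of all genes), and for 2 without animals 13 and 17. On every 12 month array 6 were higher, against 1.53% of all genes. Itih4, a plasma protein of the inter-alpha-trypsin inhibitor family, read 13.03, 12.99, 12.88 and 13.05 and then 13.14, 13.22, 13.14 and 13.12, a difference of 0.17 ± 0.06 without overlap. It was higher again at 24 months, where the test against 12 months passed (difference 0.32, adjusted p = 0.0461). Stat3, the transducer of interleukin 6, read 9.39, 9.45, 9.28 and 9.46 and then 9.59, 9.72, 9.75 and 9.77, a difference of 0.31 ± 0.13 without overlap. Cfi, complement factor I, differed by 0.16 ± 0.05, Mbl2, a mannose-binding lectin, by 0.24 ± 0.11, and Fgl1, a secreted fibrinogen-like protein, by 0.48 ± 0.21, each with overlap. Of 45 plasma proteins and clotting factors 36 were above 0, with a median of 0.05 that turned to -0.04 with arrays scaled to a common median. Unadjusted p was under 0.05 for 7 of them, 6 higher and 1 lower (15.6% against 6.95% of all genes). Alb and Apoa1 differed by -0.04 ± 0.05 and 0.03 ± 0.03, and Apoa1 by -0.07 and -0.02 under the 2 other scalings.

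Some amino acid and stress genes stood apart from their lists. Got1, the cytosolic aspartate aminotransferase, read 11.05, 11.19, 10.81 and 11.04 and then 11.63, 11.21, 12.01 and 11.35, a difference of 0.53 ± 0.20 without overlap. Cbs, which starts transsulfuration, differed by 0.32 ± 0.11 with overlap, while 20 of 33 genes of the urea cycle and amino acid breakdown lay above 0 with a median of 0.01. Gsr, glutathione reductase, was higher on every older array by 0.19 ± 0.07 on the log2 scale. A second Gsr probe set, above the bound on all 8 arrays, gave 0.07. The 24 NRF2 targets split 11 above and 13 below. Bag3, a co-chaperone, differed by 0.47 ± 0.19 and Ahsa1, an activator of HSP90, by -0.16 ± 0.06. Igf1, made by the liver under growth hormone, read 12.06, 12.18, 12.16 and 12.16 and then 12.18, 12.21, 12.36 and 12.32, a difference of 0.13 ± 0.04. The groups touched at 12.18 without crossing. The male-biased enzymes Hsd3b5 and Cyp2d9 overlapped, with animal 13 the lowest in both, at 11.35 and 12.49.

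Noct, a rhythmic nuclease of the clock list also known as nocturnin, read 7.99, 7.07, 8.74 and 8.28 at 6 months and 8.59, 9.96, 10.99 and 9.44 at 12 months. Its difference of 1.72 ± 0.45 (unadjusted p = 0.00208, adjusted p = 0.461) was the largest of the clock genes, and only animal 3 fell within the younger range. With the Dbp minus Arntl difference as a covariate it was 1.89 (adjusted p = 0.303), and at 24 months the gene passed the test against 6 months (difference 2.80, adjusted p = 0.0146).

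Lists of structural cells of the liver had small median differences. Endothelial markers had 21 of 28 above 0 and a median of 0.05. Unadjusted p was under 0.05 for 5 (17.9% against 6.95% of all genes), 2 higher and 3 lower. On every older array 2 were higher and 1 lower, against 1.53% and 1.74% of all genes. Gata4, a factor of sinusoidal endothelium, read 6.43, 6.55, 6.72 and 6.76 and then 6.80, 7.14, 6.86 and 6.97, a difference of 0.32 ± 0.11 without overlap. The central vein signals Wnt2 and Rspo3 differed by -0.56 ± 0.22 and -0.26 ± 0.10 with overlap, and Bmp2, which drives hepcidin, by -0.27 ± 0.12 without. Of 35 stellate cell and matrix genes 23 were above 0 with a median of 0.11, which was 0.00 without 12 month animal 13 and 0.21 without 12 month animal 17. Mmp14, a membrane metalloproteinase, was higher on every older array by 0.30 ± 0.11 on the log2 scale and passed the test at 24 against 6 months (adjusted p = 0.00513). Of 43 proliferation genes 26 were never above the bound, and their median was 0.04.

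**Figure D5:**
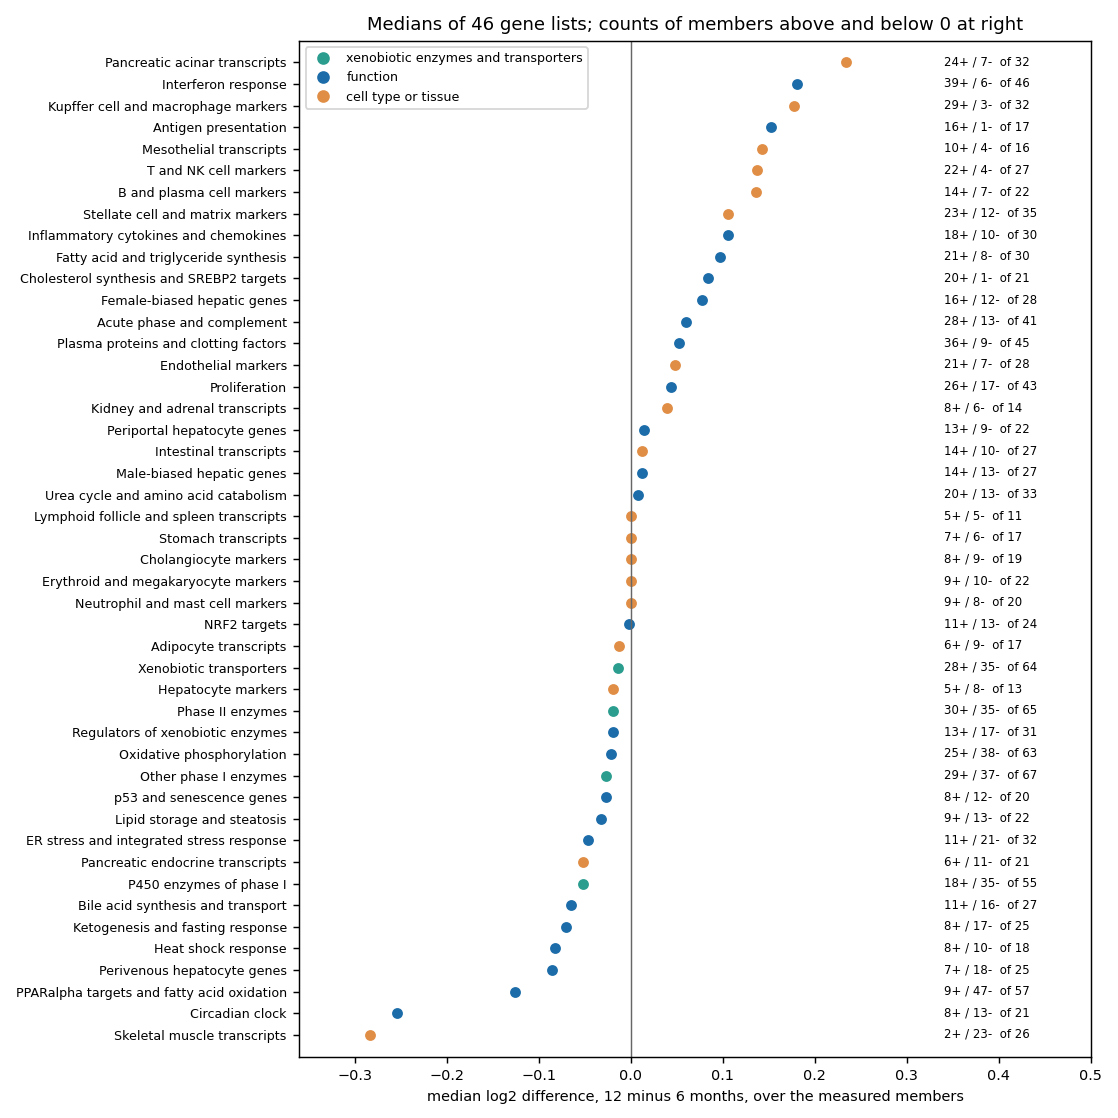
Median log2 difference, 12 minus 6 months, of 46 gene lists, coloured by kind, with the number of members above and below 0 of those measured at right. The median over all genes is 0.00. Pancreatic acinar transcripts (0.23) and interferon genes (0.18) lie highest, and skeletal muscle (-0.28), clock (-0.25) and PPARalpha genes (-0.13) lowest.

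Set beside the later ages, 12 months was tested directly. Between 18 and 12 months 0 of 18193 genes (0%) passed limma's test, with 1075 at an unadjusted p under 0.05, and between 24 and 12 months 39 did (0.214%), 17 higher and 22 lower at 24 months. Nnt was among them: lower at 12 than at 6 months by 0.29 on the log2 scale without passing, it was higher at 24 than at 12 months by 0.45 (adjusted p = 0.037). Fgl1 differed by 1.21 and Itih4 by 0.32 between 12 and 24 months (adjusted p = 0.0461 for both), and Pla2g1b, at background on all 8 arrays of 6 and 12 months, was also among the 39 (adjusted p = 0.0476). The count of 39 was 8 without 12 month animals 13 and 17, 3 without 6 month animal 11 and 12 month animal 6, and 0 with arrays scaled to a common median. The 24 versus 12 and 12 versus 6 comparisons share the 12 month arrays. Against 6 months, 20 of 18193 genes passed at 18 months and 233 at 24 months. Those tests share the 6 month arrays with the 12 versus 6 comparison.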

How the data were processed

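The deposited values are intensities of a series matrix, 1 column per array, on a linear scale with values below 0; the summarisation method is not given in the sources used here. Per the labels' protocols, RNA was isolated with TriReagent and a column cleanup and labelled by the Affymetrix protocol. The deposited intensity values of the 16 C57BL/6 arrays of 6, 12, 18 and 24 months were quantile normalized, set to at least 0 and taken as log2(intensity + 16). Of 45101 probe sets, 34945 have 1 gene symbol, 932 several and 9160 none, and 64 are controls. Each of 18193 genes was read from its one-symbol probe set of highest mean. Age was fitted with limma 3.58.1 in R 4.3.3 (lmFit, eBayes), with Benjamini-Hochberg adjustment at 0.05, after the fit was tested on simulated data. The number of arrays limits the precision. No 2 arrays held identical values. The sources used here give no scan date or batch, and the ages share no replicate number.

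Members and lists were chosen with earlier results of these data known. Named genes are the 12 largest differences in each direction with an unadjusted p under 0.05, no overlap and signal above the bound on all 4 arrays of the higher group (predicted transcripts left out), up to 4 members of smallest p per list that are above the bound on all arrays of an age, a set of fixed genes and the acinar transcripts. Named after their values were seen were Zbtb44, Mtf1, Gemin2, Abl2, Exoc8, Igha, Ms4a1, Cd79a, Cd79b, Mzb1, Acta1, Ckm, Hadhb, Eci2, Slc27a2, Angptl4, Cox5a, Ndufb6, Cox8a, Fgl1, Mbl2, Bmp2, C1qa, Abca7 and Ddx6. So were Myh1, Mb, Tnnc2, Igk, Ciart and Cyp2c68, and the genes called only under an alternative. Promoters come from the RefSeq table (GRCm38.p6), which held 119 of 162 genes looked for. Figures were drawn with matplotlib 3.10.9. Alternatives covered scaling, pseudocount, dim genes, probe sets, arrays in the fit, array weights, variance prior, a minimum change, animals left out and covariates.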

Additional observations from a re-analysis of the deposited data

Results flagged for a closer look

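In 416 groups of 4 values, 39 held 1 animal apart from the other 3 by Dixon's criterion, which chance meets in about 1 group in 20. The criterion is relative to the spread, so it also marks small gaps, such as Cyp2d10 at 13.02 against 12.99. Where the other 3 values all sit at the floor, as for Cpb1 at 6 months, any gap meets it and that rate does not hold. Skeletal muscle transcripts made up many of the 39. In 6 month animal 11 Ckm stood at 10.86, Myh1, a fast myosin heavy chain, at 11.22, Mb, myoglobin, at 11.25, and Tnnc2, a fast troponin, at 11.36. In 12 month animal 6 Myh1 stood at 9.84, Mb at 9.72 and Tnnc2 at 10.39, and the list's median level was 9.31 in animal 11 and 8.39 in animal 6.

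Acinar transcripts near the floor gave 4.33 for Cpb1 in 6 month animal 21, 4.09 for 2210010C04Rik and 4.14 for Pla2g1b in animal 11, and 4.00 for Clps in animal 21. Among immune genes Cd79b was low at 5.32 in 6 month animal 11 and Igk high at 6.23 in 12 month animal 13.

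At 6 months animal 2 was high in Ptprj at 7.72 and Abcc9 at 8.80, and animal 16 high in Cyp4a14 at 10.32 and low in Cfi at 12.73. Animal 21 was high in Cyp2d10 at 13.02, and animal 11 was high in Nr1i2 at 8.42 and low in Gstm1 at 12.81 and Cyp2c68 at 12.04. At 12 months animal 3 was high in Acsm3 at 9.88 and Mvd at 7.86 and low in Ahsa1 at 9.69. Animal 6 was high in Fgfr4 at 8.63 and low in Ndufb6 at 11.51, animal 17 high in Ppara at 10.75, and animal 13 low in Cyp2d9 at 12.49 and high in the clock gene Ciart at 6.47.

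Median levels of lists stood apart in 6 month animal 16 for P450 enzymes (8.70, low) and B and plasma cell markers (5.44, high), and in 6 month animal 11 for lipid storage (8.55, high) and hepatocyte markers (13.45, low). In 12 month animal 3 cholesterol synthesis was high at 10.58. In 12 month animal 13 acute phase genes (10.85), perivenous hepatocyte genes (11.59) and erythroid markers (4.82) were low.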

How the results depend on the processing

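Between 12 and 6 months limma called 0 genes under each alternative except these: 1 with a pseudocount of 1 (Gdpd5, listed at 0 at 6 months), 4 without 12 month animals 13 and 17 (3300002P13Rik, C230035I16Rik, Ddx6 and Inpp1), and from 0 to 2 as single animals were left out. The last were Pla2g1b without animal 3, and C130046K22Rik and E2f5 without animal 6. Genes with an unadjusted p under 0.05 numbered 673 with dim genes filtered out (7.53% of 8941), 2351 with every probe set on its own (6.73%), and 1048 to 1442 without single animals. With arrays scaled to a common median 393 of them were higher and 557 lower (41.4% higher), and by a trimmed mean 691 and 549 (55.7%), against 49.4%. The median over all genes moved to -0.01 and 0.02 under these scalings. Between 18 and 12 months the calls were 1 with a pseudocount of 1, 2 with a trended and robust variance prior, and 2 without animals 13 and 17. Between 24 and 12 months the 39 calls were 0 with common medians, 25 with a trimmed mean, 8 without animals 13 and 17, 3 without 6 month animal 11 and 12 month animal 6, and 5 with Dbp minus Arntl as a covariate. The last 2 alternatives were chosen after seeing the data. The cause of these shifts was not tested.

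Of 46 lists 21 had a median above 0, and 24 to 27 without single animals. The median of the xenobiotic genes was -0.0923 with common medians, and from -0.0389 to -0.015 without single animals. That of B and plasma cell markers was 1.1387 with dim genes filtered out, which leaves fewer genes. Over the alternatives 20 of 47 list medians and 23 of 162 gene differences changed sign at least once. With common medians plasma proteins had -0.0369, Apoa1 -0.0729 and Fgg -0.0122, and with a trimmed mean Apoa1 had -0.0222. Without probe sets of shared or mixed sequence Esrrb had -0.0647, Lyz1 -0.0372, Cyp2b10 0.4255 and the hepatocyte list 0.0069. Without animals 13 and 17 the hepatocyte list had 0.0112, Prss2 -0.0265, Cel -0.4182, Cyp1a2 0.0502, Cyp2e1 0.0267, Nr1i3 0.0126, Srebf1 -0.09, Hsd3b5 0.2659, Alb 0.05 and Mzb1 -0.0415. With the acinar level as a covariate Srebf1 had -0.1783, Prss2 -0.0313, Hspa1b 0.0757, Cyp2e1 0.0251, Hsd3b5 0.0499, Alb 0.0408, Cel -0.3881 and Mzb1 -0.0279. Without 6 month animal 11 and 12 month animal 6, Cyp2b10 had 0.4481, Nr1i2 0.0688 and Tnnc2 0.2427. With Dbp minus Arntl as a covariate Nr1i3 had 0.0448 and Dbp 0.0236, and with array weights Cyp2e1 had 0.0036. Prss2 and Cel belong to the list that gives the acinar covariate, and Dbp to its own covariate. Their values under these covariates follow from the adjustment and test nothing.

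Muscle transcripts also turned. With array weights, without animals 13 and 17, and with the acinar covariate, in this order, Acta1 had 1.1006, 1.7905 and 2.0769, Ckm 0.4824, 0.4974 and 0.6656, Myh1 0.5758, 0.7442 and 1.0666, Mb 0.8522, 1.0389 and 1.496, and Tnnc2 1.2374, 1.5793 and 2.035. Tnnc2 had 0.9617 with a pseudocount of 1. Without single animals the ranges that crossed 0 were -1.9321 to 1.6787 for Acta1, -1.4346 to 0.8998 for Ckm, -1.9526 to 1.0815 for Myh1, -1.8108 to 1.4308 for Mb and -1.6018 to 1.7808 for Tnnc2. They were -0.0518 to 0.8534 for Arntl, -0.2088 to 0.2627 for Cel, -0.1918 to 0.0667 for Cyp1a2, -0.4538 to 0.2328 for Cyp2b10 and -0.0209 to 0.0126 for Cyp2e1. They were -0.2691 to 0.1571 for Hsd3b5, -0.0105 to 0.1455 for Mzb1, -0.1801 to 0.0118 for Nr1i2, -0.1646 to 0.1388 for Nr1i3 and -0.0048 to 0.2461 for Srebf1. No paired analysis was possible because the ages share no replicate number. Of all genes 7832 were under the bound of background on all 8 arrays, where a difference has no measured size.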
